A study of Mus musculus with 8 samples.

Results

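Integrins are the receptors by which cells hold on to the extracellular matrix, and the genes of 10 of their subunits were examined in cell preparations named microvascular endothelial by the study, with and without LRP1. The genes were chosen by symbol, as subunits whose proteins bind matrix, and all 10 were among the 22520 genes of the expression table. They were Itga1, Itga2, Itga3, Itga5, Itga6, Itga8 and Itgav, which encode alpha subunits, and Itgb1, Itgb3 and Itgb5, which encode beta subunits. Of these, 9 passed the filter on low values (at least 1 FPKM in at least 4 libraries), and Itga2 did not.

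The study compared 4 libraries of mice that lack Lrp1 in endothelium (LRP1 KO) with 4 of littermate controls (WT), all on the C57BL/6 strain at postnatal day 14. As the study's methods describe the model, both groups carried floxed Lrp1 alleles, and the knockout mice in addition carried CreER, a drug-inducible recombinase, driven by the Cdh5 promoter. The controls had no CreER, so the transgene and the loss of LRP1 cannot be told apart. The labels do not say whether the drug that activates CreER was given to both groups. The cells of heart, liver and lung had been captured on PECAM-1 antibody beads. The labels call each library a mix of the organs, while the study describes separate preparations of liver and of heart and lung. The labels do not say how many mice went into a library, so the p-values measure the spread between these libraries.

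An integrin is a pair of 1 alpha and 1 beta subunit that spans the membrane. Outside the cell it binds matrix proteins, and inside it is tied to actin through talin, kindlin and their partners, which also relay signals to focal adhesion kinase and Src family kinases. The product of Itgb1 pairs with those of Itga1 and Itga2 to bind collagens, with those of Itga3 and Itga6 to bind laminins, and with those of Itga5 and Itga8 to bind ligands with the Arg-Gly-Asp (RGD) motif such as fibronectin and nephronectin. The product of Itgav pairs with several beta subunits, those of Itgb3 and Itgb5 included, to bind vitronectin and other RGD ligands. In endothelium, integrins anchor cells to the basement membrane and serve in vessel growth. LRP1, an endocytic receptor, is known as a regulator of the surface level and recycling of integrins of the Itgb1 class, which RNA levels do not show.

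The values are FPKM (fragments scaled to transcript length and to the mapped total) that the authors had quantile normalized, so the sum per library was 503571 to 504112 FPKM and the depth is unknown. Lrp1 itself measured 103 to 140 FPKM in the WT libraries and 2.79 to 7.72 FPKM in the LRP1 KO libraries, a log2 fold change of -4.45 (SE 0.23, limma adjusted p 8.89e-05), as the labels imply. LRP1 KO library 4 stood apart from the other knockout libraries. Its first principal component was 0.102, against 17.2 to 27.3 for them and -24.1 to -12.9 for WT. All 12 genes of an endothelial marker list were present, but at low levels in WT. Their sum was 112 to 126 FPKM in WT whereas LRP1 KO libraries 1 to 4 had 468, 263, 328 and 112 FPKM, while 8 fibroblast genes summed to 2371 to 3554 FPKM in WT and to 1973 to 3152 FPKM with LRP1 KO. In WT, the first 4 endothelial genes, Pecam1, Cdh5, Kdr and Tek, averaged 7.89, 9.59, 5.57 and 1.18 FPKM. The first 4 fibroblast genes, Pdgfra, Col1a1, Dcn and Lum, averaged 43.9, 498.5, 922 and 31.1 FPKM. Emcn, the highest endothelial gene, averaged 29.5 FPKM in WT and 110 FPKM with LRP1 KO. With LRP1 KO it was above Pdgfra (23.3 FPKM) and Lum (26.5 FPKM) and below Col1a1 (470 FPKM) and Dcn (670 FPKM). The sums of the lists go against the endothelial name, so the libraries are named by genotype only. The T lymphocyte genes Cd3e and Cd3g were at 0 in every library, and hepatocyte genes summed to at most 1.42 FPKM. In such bulk libraries, fewer cells of a type and less RNA per cell cannot be told apart.

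In the WT libraries the 10 genes covered a wide range. On the FPKM scale, which corrects for gene length, Itgb1 was highest at 404 ± 51.1 (SD, n = 4), followed by Itga3 at 78.9 ± 8.72, Itgb5 at 66.7 ± 2.09, Itgav at 41.7 ± 8.61 and Itga5 at 41.4 ± 4.41. Itga8 (5.97 ± 2.03), Itga1 (3.39 ± 0.490), Itgb3 (2.97 ± 0.541) and Itga6 (2.50 ± 0.319) formed a lower group, and Itga2 (0.326 ± 0.197) was lowest. The library ranges of neighbours in this order overlapped for Itgav and Itga5, and along the row from Itga8 to Itga6. All other neighbours were apart. Thus the collagen-binding genes and Itga6 were low in WT beside the abundant Itgb1, Itga3, Itgb5, Itgav and Itga5.

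In the LRP1 KO libraries Itga5 stood between Itga3 and Itgb5, with ranges that overlapped both, and was apart from Itgav. Itga6 moved from rank 9 to rank 6, at 9.51 ± 4.12 FPKM. The range of Itga6 overlapped that of Itgb3 (4.73 ± 1.82), the next gene, and Itgb1 remained highest at 490 ± 32.5 FPKM (SD, n = 4 each).

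**Figure D1:**
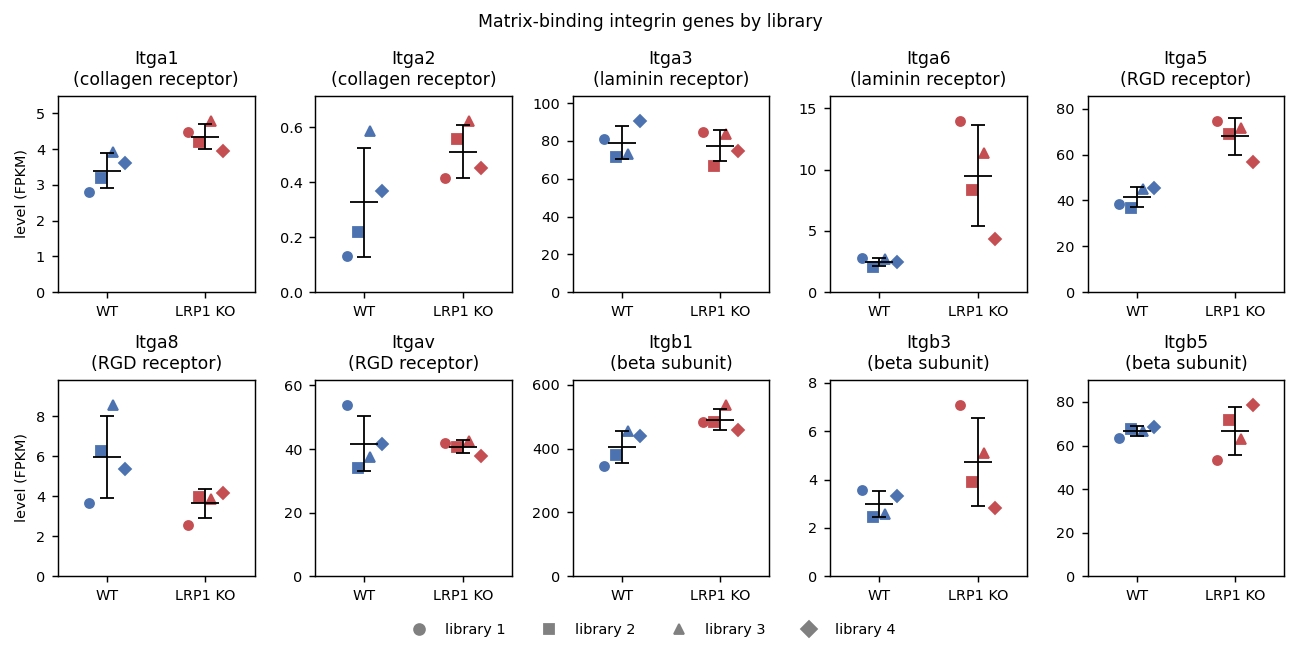
Level of each of the 10 integrin genes in FPKM (y axis, from 0, own scale per panel) in 4 WT and 4 LRP1 KO libraries; each symbol is a library, and bars show the mean and SD. The LRP1 KO libraries lay above all WT libraries for Itga1, Itga5, Itga6 and Itgb1, and the groups overlapped for the other 6 genes.

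The comparison of LRP1 KO with WT asked which of these receptors differed at the RNA level. Itga6 and Itga5 rose, and no member fell past the threshold. Thus 2 of the 9 tested members were higher at a limma adjusted p under 0.05, where 6.27% of all 11389 tested genes were higher and 7.31% were lower. At an unadjusted p under 0.05, 5 members were higher and 1 was lower, against 15.5% and 18.2% of all tested genes. With the added limit of a 2-fold change, which the study used, 1 member remained higher, Itga6, against 1.12% of all tested genes, and 0 were lower, against 0.5%. The LRP1 KO libraries lay above all WT libraries in 4 tested members, against 8.84% of all tested genes, and below them in 0, against 10.7%. The median log2 fold change was 0.28 over the 9 tested members and -0.01 over all tested genes. Without LRP1 KO library 4, 5 members rose (Itga1, Itga5, Itga6, Itgb1 and Itgb3), where 12.6% of all tested genes did, and 0 fell, where 13.9% did. With library quality weights 4 members rose and 1 fell (Itga8), against 12.4% and 13.9%. Without WT library 1, Itga8 passed as lower, as did 414 of all 11389 tested genes.

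The laminin receptor gene Itga6 (ENSMUSG00000027111) showed the largest change. It lies on the plus strand of chromosome 2, from 71745616 to 71858416 in GRCm38, and encodes the alpha subunit that joins the product of Itgb1, or in epithelia that of Itgb4, to bind basement membrane laminins. Itga6 measured 2.75, 2.05, 2.70 and 2.48 FPKM in the 4 WT libraries, in the order of their numbers, and 13.9, 8.33, 11.4 and 4.37 FPKM in the 4 LRP1 KO libraries. The groups did not overlap, with library 4 the lowest and library 1 the highest of the knockout group. The ratio of the group means was 3.81. On the log2(FPKM + 1) scale, which understates changes of low genes, the rise was 1.49 (SE 0.27, limma adjusted p 0.0111). It was 1.77 with a pseudocount of 0.1. By exact permutation (two-sided) p was 0.0286, the smallest value that 4 against 4 libraries allow. The rise passed the threshold in each of 14 alternative fits, at 1.29 to 1.78 when 1 library was left out (adjusted p 0.000351 to 0.0420). The annotation places a long noncoding RNA on the opposite strand (Gm17250) and other noncoding transcripts within Itga6, and reads of overlapping genes cannot be told apart here.

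The spread of Itga6 within the knockout group was wide, with a coefficient of variation of 43.4%, against 12.8% in WT. The order of the knockout libraries (1, 3, 2, 4) was that of the summed endothelial markers, at 468, 328, 263 and 112 FPKM. In library 4 that sum was within the WT range of 112 to 126 FPKM, while Itga6 at 4.37 FPKM was above the WT maximum of 2.75 FPKM. Of the 12 endothelial genes, all 12 had positive estimates and 0 passed the limma threshold, where 6.27% of all tested genes were higher. The part of the cell mixture in the rise of Itga6 was not tested.

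Itga3 (ENSMUSG00000001507, chromosome 11, minus strand, 95044474 to 95076801), the other laminin receptor gene, encodes a partner of the Itgb1 product. It measured 80.9, 71.3, 73.1 and 90.4 FPKM in the WT libraries and 84.6, 66.9, 83.5 and 74.9 FPKM in the LRP1 KO libraries. The groups overlapped almost fully. The log2 fold change was -0.03 (SE 0.10, limma adjusted p 0.874), with a 95% confidence interval from -0.24 to 0.19. Itga3 thus remained the more abundant of the laminin receptor genes in every library.

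The genes most like Itga6 in their course over the 8 libraries were Fst, Cd93 and Car8. Likeness was the root mean square difference of log2(FPKM + 1) after each gene's mean was subtracted, and it was 0.132, 0.160 and 0.184. Cd93 encodes a surface glycoprotein of endothelial and myeloid cells, and ranged from 1.42 to 1.71 FPKM in WT, while the LRP1 KO libraries had 8.25, 5.49, 5.96 and 3.29 FPKM. Fst, which encodes follistatin, an inhibitor of activin, ranged from 3.26 to 4.07 FPKM in WT, while the LRP1 KO libraries had 20.7, 12.9, 13.4 and 5.32 FPKM. As with Itga6, library 4 was the lowest of the knockout group for all 3 genes, which follows from their choice by likeness over these libraries.

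Among the RGD receptors, Itga5 rose, the groups of Itgav overlapped, and Itga8 had a lower mean that did not pass. Itga5 (ENSMUSG00000000555, chromosome 15, minus strand, 103344286 to 103366763 in GRCm38) encodes the main fibronectin receptor subunit, and Itgav (ENSMUSG00000027087, chromosome 2, plus strand, 83724397 to 83806916) the subunit common to the vitronectin receptors. Of these genes Itga5 rose and Itgav did not pass, so their promoters are shown together with that of Itgb1, whose protein can pair with both. The 250 bases before the start site were read from RefSeq windows (GRCm38.p6), which were found for 8 of the 10 members, not for Itga6 and Itgb3. Capitals mark matches on either strand to the SP family GC box (GGGCGG) or to the ETS core (GGAAG).
Itga5 (chr15:103366792-103367041, minus strand): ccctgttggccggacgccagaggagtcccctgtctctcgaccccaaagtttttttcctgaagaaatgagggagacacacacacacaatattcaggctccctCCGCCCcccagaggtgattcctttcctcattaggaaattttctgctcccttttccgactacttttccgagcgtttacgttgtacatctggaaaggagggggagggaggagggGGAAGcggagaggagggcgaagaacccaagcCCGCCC
Itgav (chr2:83724147-83724396, plus strand): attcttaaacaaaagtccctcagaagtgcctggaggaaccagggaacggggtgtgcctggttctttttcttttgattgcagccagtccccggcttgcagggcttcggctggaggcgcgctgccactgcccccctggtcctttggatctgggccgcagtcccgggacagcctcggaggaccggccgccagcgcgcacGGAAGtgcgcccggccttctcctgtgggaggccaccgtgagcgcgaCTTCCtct
Itgb1 (chr8:128685404-128685653, plus strand): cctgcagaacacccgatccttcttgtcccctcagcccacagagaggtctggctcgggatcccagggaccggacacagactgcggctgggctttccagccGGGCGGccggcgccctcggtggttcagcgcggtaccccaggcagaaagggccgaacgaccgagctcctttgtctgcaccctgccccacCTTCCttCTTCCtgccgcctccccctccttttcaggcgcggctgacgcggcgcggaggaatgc

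The Itga5 window held 2 GC box matches and 1 ETS core match, the Itgav window 0 and 2, and the Itgb1 window 1 and 2. Over all 32851 RefSeq promoter windows of that length, 32.7% held a GC box match and 64.1% an ETS core match, so such matches are common. Matches to an AP-1 motif (TGANTCA), a FoxO motif (GTAAACA) and a TATA box (TATAAA) were also searched on both strands. None was found in these 3 windows, against 6.75%, 3.17% and 12.4% of all windows. The searched letters did not overlap in the capitals shown.

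Itga5 measured 38.4, 36.7, 44.8 and 45.4 FPKM in the WT libraries and 74.5, 68.9, 71.5 and 56.6 FPKM in the LRP1 KO libraries. The groups did not overlap, and library 4 was again the lowest of its group. The mean rose from 41.4 ± 4.41 to 67.9 ± 7.87 FPKM (SD, n = 4 each), a ratio of 1.64. On the log2(FPKM + 1) scale the rise was 0.70 (SE 0.10, limma adjusted p 0.00459), and the exact permutation p (two-sided) was 0.0286. It passed in each of the 14 alternative fits, at 0.65 to 0.78 when 1 library was left out and at adjusted p-values of 0.000685 to 0.0232 over all alternatives. The coefficient of variation of Itga5 was close in both groups, at 10.7% in WT and 11.6% in LRP1 KO, unlike that of Itga6.

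Itgav measured 53.7, 33.97, 37.5 and 41.5 FPKM in the WT libraries and 41.8, 40.8, 42.6 and 37.9 FPKM in the LRP1 KO libraries. All knockout values lay within the WT range. The log2 fold change was -0.01 (SE 0.12, limma adjusted p 0.958; 95% confidence interval -0.29 to 0.26). In WT, library 1 was the highest, and without it the estimate was 0.11. Itga5 was above Itgav in WT libraries 2, 3 and 4 and in all 4 knockout libraries, and below it in WT library 1, which alone brought the WT means together.

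Itga8 (ENSMUSG00000026768, chromosome 2, minus strand, 12106632 to 12301922) encodes a receptor of nephronectin that is best known from smooth muscle and mesenchymal cells. It measured 3.68, 6.28, 8.55 and 5.34 FPKM in the WT libraries and 2.57, 3.96, 3.85 and 4.18 FPKM in the LRP1 KO libraries. The groups overlapped through WT library 1. The log2 fold change of -0.55 (SE 0.21) did not pass (limma adjusted p 0.0968, exact two-sided permutation p = 0.114). The change passed without WT library 1, at -0.73 (adjusted p 0.0445), with library quality weights (adjusted p 0.0372) and with the replicate number as a block (adjusted p 0.0478). In the block fit 2 members were higher and 1 lower, against 4.33% and 4.57% of all tested genes. The adjusted p of Itga8 ran from 0.0372 to 0.229 over the alternatives. An antisense gene, E030013I19Rik, overlaps Itga8.

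The genes most like Itga8 over the 8 libraries were Olfml1, Pla2g2e and Fmo2, with root mean square differences of 0.132, 0.135 and 0.141. All 3 had lower means in LRP1 KO, which follows from their choice by likeness. In the case of Fmo2, which encodes a flavin monooxygenase, the mean went from 174 to 127 FPKM. The fibroblast markers had negative estimates in 8 of 8 tested genes, of which 2 fell (Pdgfra and Dpt), against 7.31% of all tested genes, and their part in the value of Itga8 was not tested.

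The collagen receptor genes were low in both groups. Itga1 (ENSMUSG00000042284, chromosome 13, minus strand, 114953096 to 115101964), which encodes a receptor with a preference for type IV collagen, measured 2.81, 3.21, 3.93 and 3.63 FPKM in the WT libraries and 4.48, 4.20, 4.78 and 3.96 FPKM in the LRP1 KO libraries. The groups did not overlap, though the gap between WT library 3 and LRP1 KO library 4 was narrow. The log2 fold change of 0.29 (SE 0.10) did not pass (limma adjusted p 0.0715). It passed without LRP1 KO library 4 (0.33, adjusted p 0.0470) and with library quality weights (0.27, adjusted p 0.0419), and the alternatives gave adjusted p-values of 0.0419 to 0.186. The protein-coding gene Pelo lies within Itga1 on the same strand, so that its reads may be shared.

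Itga2 (ENSMUSG00000015533, chromosome 13, minus strand, 114833081 to 114932100), the collagen receptor gene of platelets and epithelia, measured 0.133, 0.220, 0.584 and 0.366 FPKM in the WT libraries and 0.416, 0.558, 0.621 and 0.449 FPKM in the LRP1 KO libraries. The groups overlapped, and no library reached 1 FPKM. The exact permutation p (two-sided) was 0.143. When genes with low values were kept, its log2 fold change was 0.20 (SE 0.10, limma adjusted p 0.255).

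The beta subunit genes were led by Itgb1 (ENSMUSG00000025809, chromosome 8, plus strand, 128685654 to 128733200), the common partner of most alpha subunits studied here. It measured 344, 380, 455 and 438 FPKM in the WT libraries and 483, 483, 535 and 458 FPKM in the LRP1 KO libraries. The groups did not overlap, with WT library 3 and LRP1 KO library 4 nearly equal. The ratio of means was 1.21 and the log2 fold change 0.28 (SE 0.09), which did not pass (limma adjusted p 0.0723, and 0.0483 to 0.184 among the alternatives). The only alternative in which it passed was the fit without LRP1 KO library 4, at 0.31.

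Itgb3 (ENSMUSG00000020689, chromosome 11, plus strand, 104608000 to 104670476) encodes the beta subunit of a vitronectin receptor of angiogenic endothelium, macrophages and osteoclasts and of the fibrinogen receptor of platelets. It measured 3.55, 2.44, 2.58 and 3.31 FPKM in the WT libraries and 7.07, 3.92, 5.10 and 2.83 FPKM in the LRP1 KO libraries. The first 3 knockout libraries were above all WT libraries, while library 4 was within the WT range. The log2 fold change of 0.48 (SE 0.21) did not pass (limma adjusted p 0.137, exact two-sided permutation p = 0.114). Without LRP1 KO library 4 it was 0.66 and passed (adjusted p 0.0234), without LRP1 KO library 1 it was 0.30 and did not pass (adjusted p 0.299), the ends of the range over the alternatives, and it passed with library quality weights at 0.59 (adjusted p 0.0488). Platelet genes were low in all libraries, with 6 genes summing to 1.96 to 2.47 FPKM in WT and 2.23 to 4.81 FPKM with LRP1 KO. Pf4 was higher in every LRP1 KO library than in WT (means of 0.686 and 1.60 FPKM). The groups overlapped for the other genes of that list, with Ppbp at 0 throughout.

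Itgb5 (ENSMUSG00000022817, chromosome 16, plus strand, 33829665 to 33949338), the other vitronectin receptor partner of Itgav in this group, measured 63.7, 67.7, 66.9 and 68.4 FPKM in the WT libraries and 53.5, 71.8, 63.0 and 78.5 FPKM in the LRP1 KO libraries. The means were 66.7 ± 2.09 and 66.7 ± 10.8 FPKM (SD, n = 4 each), so the groups had the same mean but the knockout libraries were more spread, on both sides of WT. The log2 fold change was -0.01 (SE 0.10, limma adjusted p 0.946; 95% confidence interval -0.25 to 0.22).

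**Figure D2:**
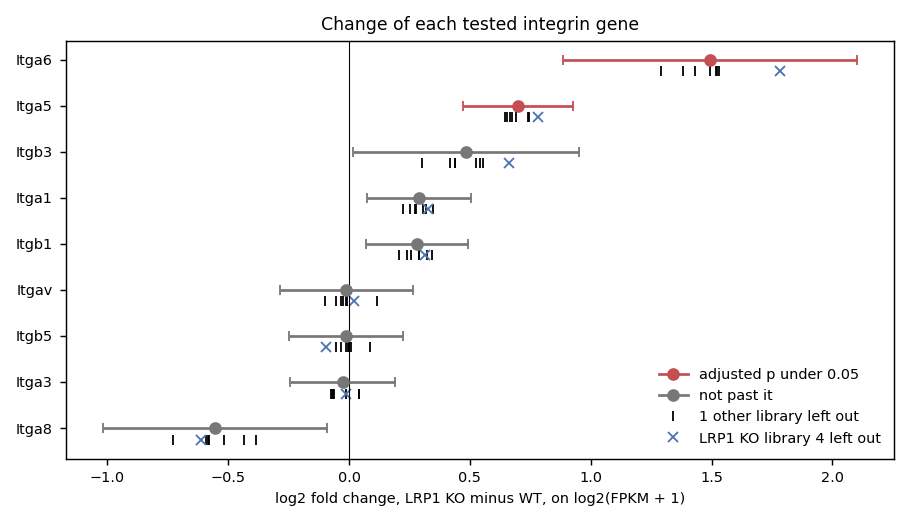
Log2 fold change of the 9 tested integrin genes on log2(FPKM + 1) (x axis), with 95% confidence intervals from the fit across all genes; ticks under each gene give the estimates with 1 library left out, and crosses those without LRP1 KO library 4. Itga6 at 1.49 and Itga5 at 0.70 passed the threshold, while Itgav, Itgb5 and Itga3 lay at 0 within their intervals.

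Because subunits work in pairs, the genes were also set against each other within each library. A ratio was the difference of the log2(FPKM + 1) values of both genes. In it a factor common to both cancels for high genes, but not fully for genes at a few FPKM or less. Of 11 ratios, 0 passed after Benjamini-Hochberg adjustment, and 3 had an unadjusted exact permutation p of 0.0286, the smallest possible. Even 3 ratios at that smallest value reached only an adjusted p of 0.105. With so few libraries the adjustment could hardly be passed, so the count of 0 is not informative. The log2 ratio of Itga5 to Itgb1 was -3.13, -3.34, -3.31 and -3.24 in WT and -2.68, -2.79, -2.89 and -3.00 in LRP1 KO, a difference of 0.42 (exact two-sided permutation p = 0.0286, adjusted p 0.105). That of Itga6 to Itgb1 was higher by 1.21 and that of Itga8 to Itgb1 lower by a log2 difference of -0.84, with the same p-values. In these 3 ratios the groups did not overlap. Over all tested genes, the LRP1 KO ratios to Itgb1 lay above all WT ratios in 1.48% and below them in 31.5%. A ratio to Itgb1 that was lower with LRP1 KO, as for Itga8, was thus common.

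The mean log2 ratio of Itgav to Itgb5 differed by 0.001 between the groups, and by -0.110 to 0.149 when 1 library was left out. That of Itga1 to Itgb1 differed by 0.01. Although Itga1 and Itgb1 differ widely in level, their log2 ratio stayed between -6.57 and -6.46 in all 8 libraries. This narrow range depends in part on the added 1, which is large beside Itga1 values of 2.81 to 4.78 FPKM. The log2 ratio of Itgav to Itgb3 was 3.30 to 3.59 in WT and 2.41, 3.09, 2.84 and 3.34 in LRP1 KO (difference -0.50, exact permutation p = 0.0571, adjusted p 0.157). With a pseudocount of 0.1 the ratio of Itga1 to Itgb1 differed by 0.0754, and that of Itga2 to Itgb1 turned from a difference of -0.0847 to 0.341.

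As shares of the summed FPKM of the 7 alpha genes, Itga3 made up 45.3% ± 2.24 in WT and 37.98% ± 2.68 in LRP1 KO, Itga5 23.8% ± 2.10 and 33.2% ± 1.90, Itgav 23.8% ± 3.74 and 20.04% ± 1.06, and Itga6 1.43% ± 0.131 and 4.55% ± 1.64 (SD, n = 4 each). For these 4 genes the library ranges of the groups were apart. Itga3 had the largest share in WT in every library, while in LRP1 KO library 2 the share of Itga5 (35.6%) exceeded that of Itga3 (34.5%). The sum of the alpha genes was 174 ± 15.5 FPKM in WT and 204 ± 19.3 FPKM with LRP1 KO, with overlap. Itgb1 was 2.33 ± 0.329 times that sum in WT and 2.41 ± 0.160 times in LRP1 KO, so the excess of Itgb1 RNA was close in both groups. These shares were not tested, since they follow from the levels already compared.

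**Figure D3:**
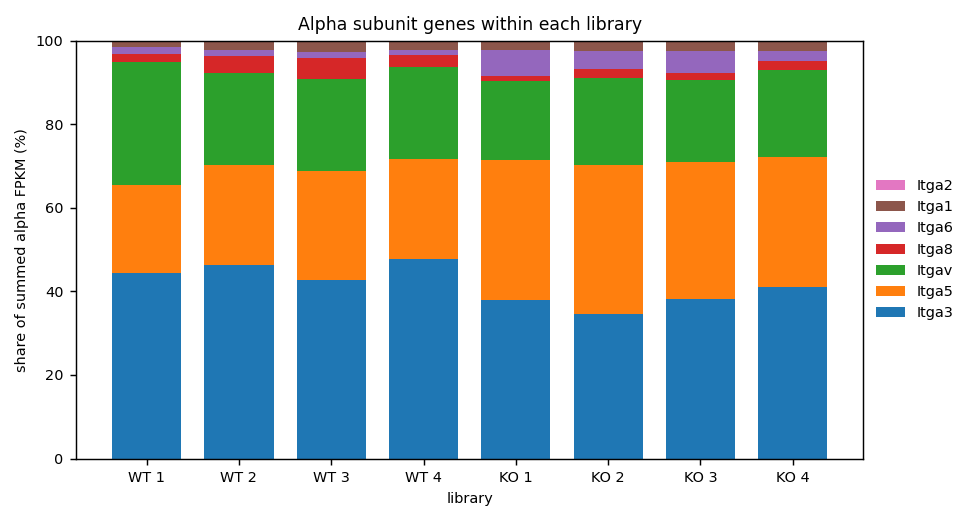
Share of each alpha subunit gene in the summed FPKM of the 7 alpha genes (y axis, percent) in each of the 8 libraries (x axis). The Itga5 segment covered 21.1% to 26.2% in WT and 31.02% to 35.6% in LRP1 KO, and the Itga6 segment 1.31% to 1.58% and 2.40% to 6.27%.

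Markers of other cells moved with the group. Macrophage genes summed to 85.1 to 106 FPKM in WT whereas LRP1 KO libraries 1 to 4 had 334, 493, 198 and 454 FPKM, and 7 of 9 tested macrophage genes rose, against 6.27% of all tested genes. Of the 7, Emr1 and Mrc1 were under 1 FPKM in every WT library. They passed the filter on low values only through the LRP1 KO libraries, which favoured a rise. Genes of a mural list summed to 667 to 833 FPKM in WT and to 1617, 1363, 1539 and 1032 FPKM with LRP1 KO, where Acta2, Des and Tagln rose among 7 tested, against the same share. Acta2 and Tagln, of smooth muscle and other contractile cells, made up most of that sum, with means of 360 and 298 FPKM in WT and of 711 and 549 FPKM with LRP1 KO. The groups overlapped for the 6 other genes of the list. Of these, Pdgfrb (means of 71.6 and 58.02 FPKM) and Rgs5 (0.720 and 0.669 FPKM) had lower means with LRP1 KO, and Cspg4 (0.916 and 1.34 FPKM), Notch3 (2.30 and 3.40 FPKM), Myh11 (2.03 and 4.87 FPKM) and Kcnj8 (0.197 and 0.221 FPKM) had higher ones. Epithelial genes summed to 99.0 to 198 FPKM in WT and to 107 to 142 FPKM with LRP1 KO, with Epcam at most 0.295 FPKM, and cardiomyocyte genes, mostly Tnnt2, to 96.9 to 153 FPKM and 82.9 to 111 FPKM, and no tested gene of either list passed. Library 3 had the lowest macrophage sum of the knockout group but the second highest Itga6 value, and library 2 the highest macrophage sum but the second lowest Itga6 value. Itgb3, Itga5 and Itga6 each had their highest knockout value in library 1 and their lowest in library 4, the order of the endothelial and mural sums at both ends. The part of any of these cells in the integrin values was not tested.

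**Figure D4:**
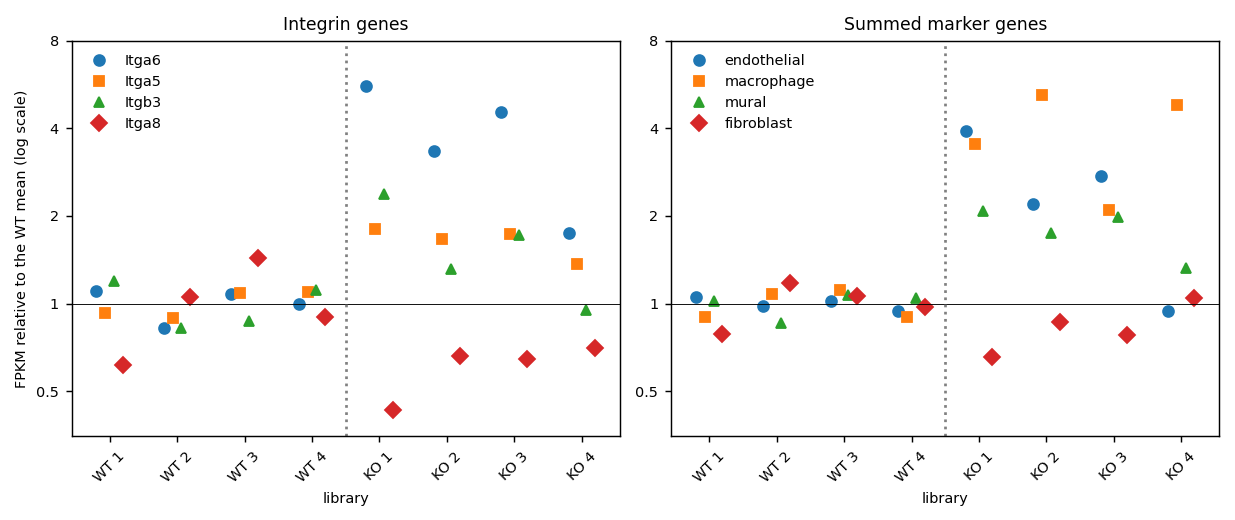
FPKM of Itga6, Itga5, Itgb3 and Itga8 (left) and summed FPKM of marker genes (right), each divided by its WT mean and drawn on a log scale, in the 8 libraries (x axis). In LRP1 KO library 4 the endothelial sum and Itgb3 were at the WT level, while Itga6, Itga5 and the macrophage sum were above it.

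The further genes of the pathway were taken from lists written by hand. Of 16 other integrin genes, 7 were tested, of which 1 rose and 1 fell, against 6.27% and 7.31% of all tested genes. Itgb2, the common beta subunit of leukocyte integrins, rose from a mean of 1.41 ± 0.298 to 5.22 ± 1.49 FPKM (SD, 4 libraries each), by 1.34 (SE 0.18, limma adjusted p 0.00328). Itga10, which encodes a collagen receptor of cartilage and mesenchymal cells, fell from 7.32 ± 1.57 to 4.55 ± 0.914 FPKM, by 0.58 (SE 0.16, limma adjusted p 0.0398). The other 5 (Itga7, Itga9, Itga11, Itgb4 and Itgb8) did not pass, with estimates of -0.31 for Itga11 to 0.51 for Itga9 and Itgb4. The fall of Itga10 did not hold without any 1 of WT libraries 1, 2 and 4 and LRP1 KO libraries 1 to 3 (count of lower genes 0, where 232 to 536 of all tested genes were lower, against 833 with all libraries), while 3 genes rose without LRP1 KO library 4, where 12.6% of all tested genes did.

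Of 38 genes of the intracellular adhesion complex, 36 were tested, of which 7 rose, 1 fell and 28 did not pass, with a median of 0.08, where 6.27% of all tested genes were higher and 7.31% lower. Actn1, which encodes the actin crosslinker alpha-actinin, rose from 133 ± 21.9 to 243 ± 60.6 FPKM, by 0.85 (SE 0.19, limma adjusted p 0.0218). Fermt3, the kindlin of blood cells, rose from a mean of 0.565 to 2.05 FPKM, by 0.94 (SE 0.14, limma adjusted p 0.00482). It was under 1 FPKM in every WT library and passed the filter on low values only through the LRP1 KO libraries. The filter thus favoured its rise and its place among the 7. Parvb, which encodes a partner of integrin-linked kinase, ranged from 2.06 to 2.31 FPKM in WT, while the LRP1 KO libraries had 8.19, 5.37, 6.29 and 2.25 FPKM (rise of 0.93, limma adjusted p 0.0489), so that library 4 again stood at the WT level. Fyn, a Src family kinase, rose by 0.46 (limma adjusted p 0.0260), and Kank1, which encodes a talin-binding scaffold, fell by 0.31 (limma adjusted p 0.0276). The other 3 that rose were Actn4, Ptk2 and Tgfb1i1.

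Tln1, which encodes talin, had means of 78.1 FPKM (WT) and 80.03 FPKM (LRP1 KO) and did not pass (limma adjusted p 0.749), and Vcl, Pxn and Ilk did not pass either (adjusted p 0.865, 0.488 and 0.129). The choice of these 4 genes was made with their values in view. The count of adhesion complex genes that rose was not secure. It was 1 without any 1 of WT libraries 1 and 2 and LRP1 KO libraries 1 to 3, 4 and 3 without WT libraries 3 and 4, and 12 without LRP1 KO library 4. Over all 11389 tested genes, 280 to 436 were higher in the 5 fits with a count of 1, 449 and 472 without WT libraries 3 and 4, and 1436 without LRP1 KO library 4. The fall of Kank1 was lost (count 0) without WT library 2, 3 or 4 or LRP1 KO library 1, 2 or 3, and 2 genes fell without LRP1 KO library 4. Over all tested genes 232 to 536 were lower in the fits with a count of 0 and 1585 without LRP1 KO library 4, against 833 with all libraries.

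Of 27 integrin ligand genes, 24 were tested, of which 3 rose and 1 fell, with a median of -0.01, against the same 6.27% and 7.31% of all tested genes. Postn, which encodes the matricellular ligand periostin, rose from a mean of 85.3 ± 10.6 to 171 ± 38.3 FPKM, by 0.98 (SE 0.15, limma adjusted p 0.00663). Ctgf and Cyr61, secreted ligands induced by matrix stiffness and growth signals, rose by 0.60 and 0.51 (SE 0.15 and 0.12, limma adjusted p 0.0335 and 0.0245). Lama5, the laminin alpha chain that is a main ligand of the Itga3 and Itga6 products, fell from 83.7 ± 9.40 to 41.4 ± 9.66 FPKM, by 1.02 (SE 0.14, limma adjusted p 0.00436). It measured 93.3, 89.8, 73.4 and 78.4 FPKM in the WT libraries and 40.6, 34.3, 35.3 and 55.3 FPKM in the LRP1 KO libraries, with no overlap. Fn1, which encodes fibronectin, the main ligand of the Itga5 product, had means of 501 FPKM (WT) and 523 FPKM (LRP1 KO) and did not pass (limma adjusted p 0.729), and Vtn, which encodes vitronectin, was at most 0.142 FPKM in any library. The number of ligand genes that rose was 1 without any 1 of WT libraries 1 and 2 and LRP1 KO libraries 1 to 3. In those fits 280 to 436 of all tested genes were higher, against 714 with all libraries. It was 5 without LRP1 KO library 4, where 1436 of all tested genes were higher. The number that fell was 2 when WT library 1 or LRP1 KO library 3 was left out and 4 when LRP1 KO library 4 was. In the last 3 fits named 414, 247 and 1585 of all 11389 tested genes were lower.

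**Figure D5:**
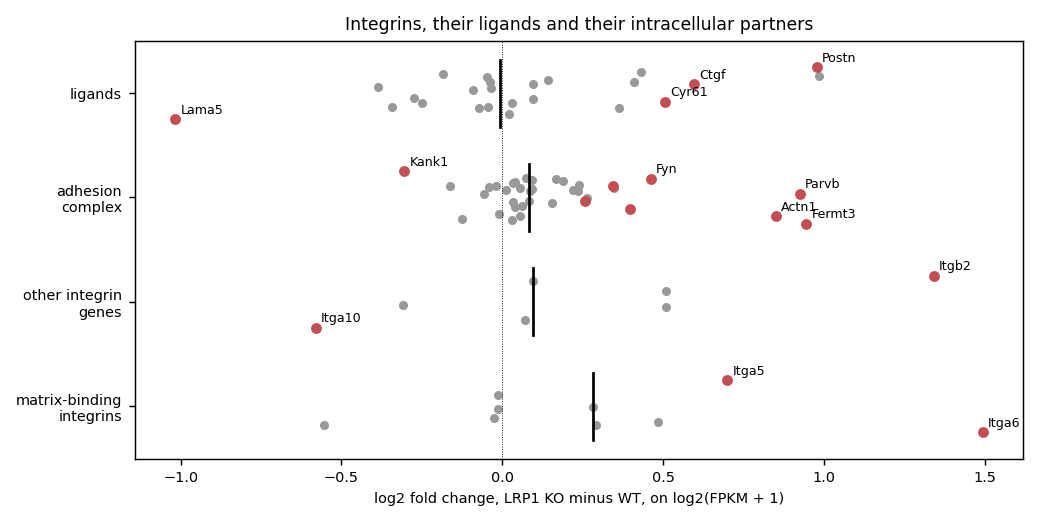
Log2 fold change of each tested gene on log2(FPKM + 1) (x axis) in 4 lists, with genes past an adjusted p of 0.05 in red and the list median as a black line; the vertical position within a list has no meaning. The medians were 0.28, 0.09, 0.08 and -0.01 from the matrix-binding integrins up to the ligands, and up to 4 genes per direction are named.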

How the data were processed

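RNA sequencing had been performed on 8 libraries, 4 WT and 4 LRP1 KO, with groups and replicate numbers from the sample titles. The deposited FPKM values were quantile normalized across libraries by the authors, as read from the values (sorted values of at least 1 differed by a median of 0.574% between libraries). Normalization ties can give genes or libraries equal values, and depth and a global shift cannot be seen. The submitters' processing notes name TopHat2, Cufflinks and mm10. The study's methods name STAR, featureCounts and edgeR, but counts were not used here. The unit is inferred from Cufflinks and the length-corrected values, and strand was not given.

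Expression was tested as log2(FPKM + 1) with limma 3.58.1 in R 4.3.3 (group as the only term, variances with a mean trend, Benjamini-Hochberg over 11389 genes with at least 1 FPKM in at least 4 libraries). A gene passed at an adjusted p under 0.05. Single genes and the 11 ratios were compared with exact two-sided permutation tests over 70 arrangements. Positions are from GENCODE M21 (GRCm38, as mm10), in which all 10 members were found. Alternatives were another pseudocount, no filter, rescaling, no trend, library quality weights, a replicate block and leaving out each library.

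The members, lists and tests were chosen with earlier results of these data known. Named are all members, Lrp1, up to 4 genes per direction and list with the largest change among those that passed, the 3 genes most like the members with the largest rise and fall, and defining markers, of which some are not reported here. All further genes named from the lists, Fn1 and Vtn included, fall outside this rule and were chosen after their values were seen.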

Additional observations from a re-analysis of the deposited data

How the results depend on the processing

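Itga6 and Itga5 kept their direction and passed in all 14 alternative fits, and Lrp1 did too (-4.68 to -4.27 without 1 library). The direction also held in all fits for Itga1, Itgb1, Itgb3 and Itga8. Itga3 (-0.0727 to 0.0412), Itgav (-0.101 to 0.115) and Itgb5 (-0.0947 to 0.0863) took either sign when 1 library was left out. Under rescaling Itgav and Itgb5 were at 0.004 and 0.0029, and with library quality weights Itgav was at 0.0208. The cause of such moves around 0 was not tested.

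The number of higher members was 2 to 5 and of lower members 0 to 1 without 1 library. With library quality weights, 4 members were higher and 1 lower, beside 1417 higher, 1586 lower and 282 past both limits over all genes, 3 other integrins higher, 11 adhesion genes higher and 2 lower, and 5 ligands lower. Without the filter on low values, 3 other integrins were higher and 0 lower, 2 adhesion genes were higher and 1 ligand was higher, beside 597 higher and 566 lower of all 18026 genes in that fit. Without the mean trend, 4 adhesion genes were higher, beside 641 higher and 787 lower of all 11389 genes. Leaving out 1 library gave 280 to 1436 higher and 232 to 1585 lower genes in all, and 133 to 339 past both limits. It gave 1 to 3 higher and 0 to 1 lower other integrins, 1 to 12 higher and 0 to 2 lower adhesion genes, and 1 to 5 higher and 1 to 4 lower ligands. The highest counts of higher genes were those without LRP1 KO library 4.

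The labels do not tie the replicate numbers to a shared animal or batch, and whether they pair the libraries is unsettled. The deviations of same-numbered libraries correlated at 0.158, 0.141, 0.340 and -0.312, and 5 of 8 libraries correlated best with their own number, which is a hint from the data and not from the design. With the number as a block, 493 of all 11389 tested genes were higher and 520 lower. In that fit 1 member was lower (Itga8), 4 adhesion genes were higher and 0 lower, and 2 ligands were lower. Depth is unknown, so the counting error of the low genes Itga2, Itga1, Itgb3, Itga6 and Itga8 cannot be estimated, and the precision rests on 4 libraries a group.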
